A study of Mus musculus with 4 samples.

Results

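The Hedgehog pathway was followed in mouse embryonic stem cells of UTX knockout (KO) and UTX conditional knockout (cKO) lines, through 9 of its genes. They were the ligands Shh and Ihh, the receptor Ptch1 and the decoy receptor Hhip. With them came the signal transducer Smo, the inhibitor Sufu and the transcription factors Gli1, Gli2 and Gli3. Every probe set that the array's annotation assigned to only 1 of these genes was taken, which gave 22 of the 45101 probe sets on the array. The members were chosen by their place in the pathway with the KO and cKO signals of these same arrays in view, so their differences between the groups are given as a description, without p-values.

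The arrays came from 2 UTX knockout (KO) lines and 2 independent UTX conditional knockout (cKO) lines, 1 Affymetrix Mouse Genome 430 2.0 array per line. All 4 were embryonic stem cell lines kept on irradiated fibroblast feeders in serum and LIF, the cytokine that holds such cells undifferentiated, then passaged on gelatin to clear the feeders. UTX is a histone demethylase that removes a repressive methyl mark from histone H3, and the series asks which genes it regulates in these cells. The labels name no Cre driver or deleted exon and do not say whether the KO lines were made from the cKO lines, or whether the RNA came from separate cultures, so the spread between lines of a group may be partly technical.

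Hedgehog ligands bind the receptor Patched (Ptch1), which otherwise holds the membrane protein Smoothened (Smo) inactive. Active Smo, working at the primary cilium, frees the Gli transcription factors from Sufu. Gli2 then acts mainly as an activator and Gli3 mainly, after partial proteolysis, as a repressor, while Gli1 is an activator whose own transcription the pathway switches on. Gli1, Ptch1 and Hhip are the usual transcriptional readouts of the pathway, and Ptch1 and Hhip in turn dampen it.

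Promoters of these genes held more CpG dinucleotides than the median promoter, some by little. Of the 9 members 7 had a promoter in the RefSeq table (GRCm38.p6), a window of 250 bases before to 50 after the gene's start. Each held between 12 and 47 CpG, against a median of 7 over the 32851 promoters of the table. Those of Sufu (12) and Smo (17) held more than 60.4% and 68.6% of these promoters. The 2 shown here, the richest in CpG of the 7, belong to a member that was higher in KO, Ptch1, and to one that was lower, Gli3. They are printed 5′ to 3′ with CpG in capitals, Ptch1 from chr13:63565686-63565985 on the minus strand and Gli3 from chr13:15463473-15463772 on the plus strand.
Ptch1: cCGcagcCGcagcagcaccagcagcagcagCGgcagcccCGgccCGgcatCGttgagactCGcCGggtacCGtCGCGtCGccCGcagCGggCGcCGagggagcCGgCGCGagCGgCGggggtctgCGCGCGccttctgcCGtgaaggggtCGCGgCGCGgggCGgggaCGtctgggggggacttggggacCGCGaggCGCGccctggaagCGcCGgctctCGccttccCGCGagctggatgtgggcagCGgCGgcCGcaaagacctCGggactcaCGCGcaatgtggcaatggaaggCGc
Gli3: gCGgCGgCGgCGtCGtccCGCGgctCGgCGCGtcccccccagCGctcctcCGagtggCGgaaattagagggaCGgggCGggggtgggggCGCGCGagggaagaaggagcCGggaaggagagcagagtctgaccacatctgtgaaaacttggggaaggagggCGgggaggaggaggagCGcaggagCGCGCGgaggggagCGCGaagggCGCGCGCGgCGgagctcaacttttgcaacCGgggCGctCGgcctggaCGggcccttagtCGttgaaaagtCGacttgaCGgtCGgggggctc
The Ptch1 window held 47 CpG and the Gli3 window 39, more than 98.6% and 95.6% of the promoters in the table, so the windows of these oppositely placed genes were both CpG-rich. The consensus bound by Gli proteins, GACCACCCA, was searched on both strands. It was found in 0 of the 7 member windows and in 0.253% of all promoters. A motif this rare would seldom appear in any 7 such windows, so the 0 says nothing about Gli binding at these genes. Gli1 was not among the 7.

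The pathway's readouts Gli1 and Ptch1 were higher in KO cells, the activator Gli2 lay higher too, and the repressor Gli3 and the transducer Smo lay lower. Of the 9 members 7 passed a filter that left out the lower 40% of genes by signal, and Hhip and Ihh did not. In limma across the 10916 genes tested, 2 of these 7 passed an adjusted p of 0.05, Gli1 and Ptch1, both higher in KO, where 0.632% of all genes tested passed in that direction and 2.2% in either. Both KO lines lay above both cKO lines for 3 members, Gli1, Ptch1 and Gli2 (21.4% of all genes tested), and below both for 2, Gli3 and Smo (21.2%), so the groups did not overlap for 5 of the 7, against 42.6% of all genes tested. Fold changes are differences of log2(signal + 4.79), KO minus cKO, with signals in the arrays' MAS5 units. Their median was 0.27 over these 7 members and 0.01 over all genes tested. These counts come from the contrast in view of which the list was made.

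**Figure D1:**
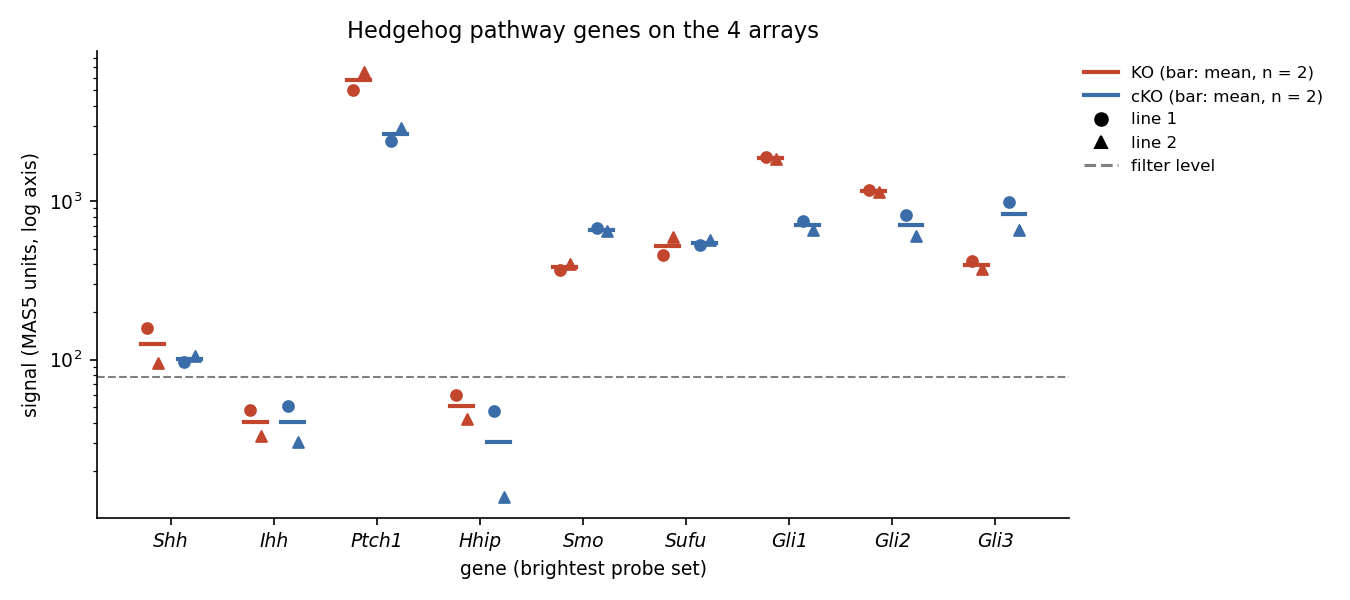
Signal of each Hedgehog member's brightest probe set on a log axis (MAS5 units), KO in red left of cKO in blue, circles for line 1, triangles for line 2 and bars for the mean of 2 lines. The KO points of Gli1, Ptch1 and Gli2 sit above the cKO points and those of Gli3 and Smo below, while Ihh and Hhip lie under the filter level of 77.7 (dashed).

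Shh encodes Sonic hedgehog, the ligand of the neural tube and limb. Its brighter probe set read 158 and 95.1 in KO lines 1 and 2, against 97.0 and 105 in cKO lines 1 and 2. The KO lines spanned both cKO values, and the log2 fold change was 0.27 (SE 0.33). The second Shh probe set read below 30 on every array. Ihh encodes Indian hedgehog, the ligand of cartilage and visceral endoderm, and its only probe set read 48.3 and 33.1 in KO lines against 51.1 and 30.2 in cKO lines. Line 1 read above line 2 in both groups, and the group means were 40.7 ± 10.7 in KO and 40.7 ± 14.8 in cKO (SD, n = 2 each). Shh passed the filter and Ihh did not, and the groups overlapped for both.

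Ptch1, receptor and target of the pathway, was measured by 3 probe sets, all with both KO lines above both cKO lines. The brightest, 1428853_at, read 5026 and 6539 in KO lines 1 and 2, against 2396 and 2902 in cKO lines 1 and 2. The means were 5783 ± 1069 in KO and 2649 ± 358 in cKO (SD, n = 2 each), 2.18-fold higher in KO, with a log2 fold change of 1.12 (SE 0.17). The lower KO line still read 1.73 times the higher cKO line. The second probe set read 303 and 741 in KO lines against 139 and 224 in cKO lines, and the third, below the filter, 88.8 and 40.8 in KO lines against 34.3 and 12.9 in cKO lines. Their log2 differences were 1.41 and 1.31, so all 3 gave increases of like size. The bright probe set gave 0.93 to 1.31 with 1 array left out. It did not pass the threshold with each array centred on its median, where its log2 fold change was 1.07.

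Hhip, a membrane protein that sequesters the ligands, is another readout. Its brightest probe set read 59.8 and 42.0 in KO lines and 47.3 and 13.7 in cKO lines, under the filter level, and the groups overlapped. The log2 difference of 0.83 became 0.08 without cKO line 2 and 1.57 without cKO line 1. The other 3 Hhip probe sets read below 35 on every array, 2 of them overlapping, and all had positive differences, of 0.50 to 1.07. All 4 Hhip probe sets thus lay below the filter.

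Smo, the transducer released when a ligand binds Ptch1, lay lower in KO, opposite to the readouts. Its brightest probe set, 1427048_at, read 366 and 401 in KO lines 1 and 2, against 674 and 650 in cKO lines 1 and 2. The means of 384 ± 25 in KO and 662 ± 16.9 in cKO (SD, n = 2 each) put it 1.73-fold lower in KO, with a log2 fold change of -0.78 (SE 0.16), short of the threshold. A second probe set gave 390 and 406 in KO lines against 583 and 663 in cKO lines, a log2 difference of -0.64. Spread between lines of a group was small for both probe sets, and the dimmest read below 5 on every array.

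Sufu, which binds Gli proteins and holds them in the cytoplasm, had nearly equal means. Its bright probe set read 456 and 594 in KO lines and 530 and 566 in cKO lines, with a log2 fold change of -0.07 (SE 0.19). The KO lines lay on either side of both cKO lines. The 2 dim Sufu probe sets disagreed in sign, at 0.45 and -1.29, and neither passed the filter.

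Gli1 showed the largest difference of the tested members. Its only probe set, 1449058_at, read 1914 and 1849 in KO lines 1 and 2, against 752 and 659 in cKO lines 1 and 2. The means were 1882 ± 46.4 in KO and 706 ± 65.8 in cKO (SD, n = 2 each), 2.67-fold higher in KO, with a log2 fold change of 1.41 (SE 0.15). The lower KO line read 2.46 times the higher cKO line, and the gap between groups exceeded the gap between the lines of either group. Leaving out 1 array in turn gave 1.32 to 1.51. Neither Gli1 nor Ptch1 passed the threshold in a fit without a trend of variance on signal, where 28 of all genes did.

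Gli2, the main activator, lay higher in KO by less. Its brighter probe set, 1459211_at, read 1177 and 1146 in KO lines 1 and 2, against 820 and 601 in cKO lines 1 and 2, a log2 fold change of 0.72 (SE 0.19) that did not pass. The second probe set read 577 and 472 in KO lines against 310 and 203 in cKO lines, a log2 difference of 1.04. Neither probe set overlapped between the groups, and the cKO lines stood further apart from each other than the KO lines. Without cKO line 2 the brighter probe set gave 0.50 and without cKO line 1 it gave 0.94.

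Gli3, whose processed form represses Hedgehog targets, lay lower in KO. Its brightest probe set, 1455154_at, read 417 and 374 in KO lines 1 and 2, against 990 and 661 in cKO lines 1 and 2. The means were 396 ± 30.7 in KO and 826 ± 233 in cKO (SD, n = 2 each), 2.09-fold lower in KO, with a log2 fold change of -1.03 (SE 0.22), short of the threshold. The second probe set read 274 and 246 in KO lines against 760 and 502 in cKO lines, and the third, near background, 3.35 and 4.20 in KO lines against 18.6 and 18.8 in cKO lines. All 3 had both KO lines below both cKO lines, at log2 differences of -1.03, -1.24 and -1.46. The brightest passed the threshold with centring (-1.07). It was at -1.10 without KO line 1, -1.32 without cKO line 2 and -0.74 without cKO line 1.

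**Figure D2:**
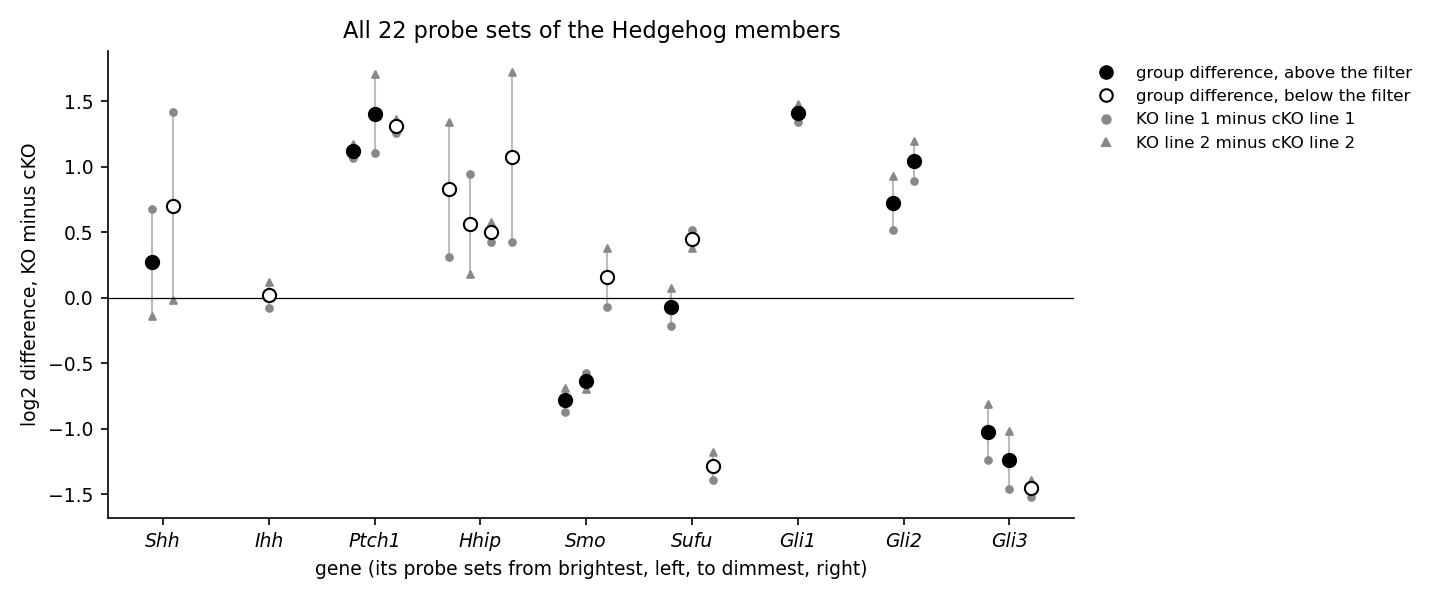
Log2 difference between KO and cKO for all 22 probe sets of the 9 members, large points for the group difference (filled where the probe set passed the filter) and small points for KO line 1 minus cKO line 1 and KO line 2 minus cKO line 2. The labels do not pair the lines, which were matched here by number only. The probe sets of Ptch1, Gli1 and Gli2 all lie above 0 and those of Gli3 all below, while those of Sufu and Smo include both signs once dim probe sets are counted.

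Over all probe sets, 11 of the 22 passed a filter set in the same way on probe sets. Of these 11 the groups did not overlap for 9, against 40.1% of the 20967 probe sets tested. KO lay above for 5 of them (20.8% of all probe sets) and below for 4 (19.3%). The bright probe sets of Gli1 and Ptch1 were again the 2 that passed an adjusted p of 0.05 in limma, where 1.22% of probe sets did. The 11 dimmer probe sets included 2 with KO above and 2 with KO below.

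A ratio between members on the same array is little affected by a constant scaling of that array. These ratios restate the fold changes above and were formed with their directions known. The log2 ratio of Gli1 to Gli3 was higher in KO than in cKO by 2.44, with SDs between lines of 0.08 in KO and 0.28 in cKO (n = 2 each). For Gli2 to Gli3 it was higher by 1.75 and for Ptch1 to Smo by 1.90. The ratio of the readouts to each other, Gli1 to Ptch1, was higher in KO by 0.29, with SDs of 0.30 and 0.33 in KO and cKO, and that of Gli3 to Smo was lower by 0.24 in KO, with SDs of 0.20 and 0.37.

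**Figure D3:**
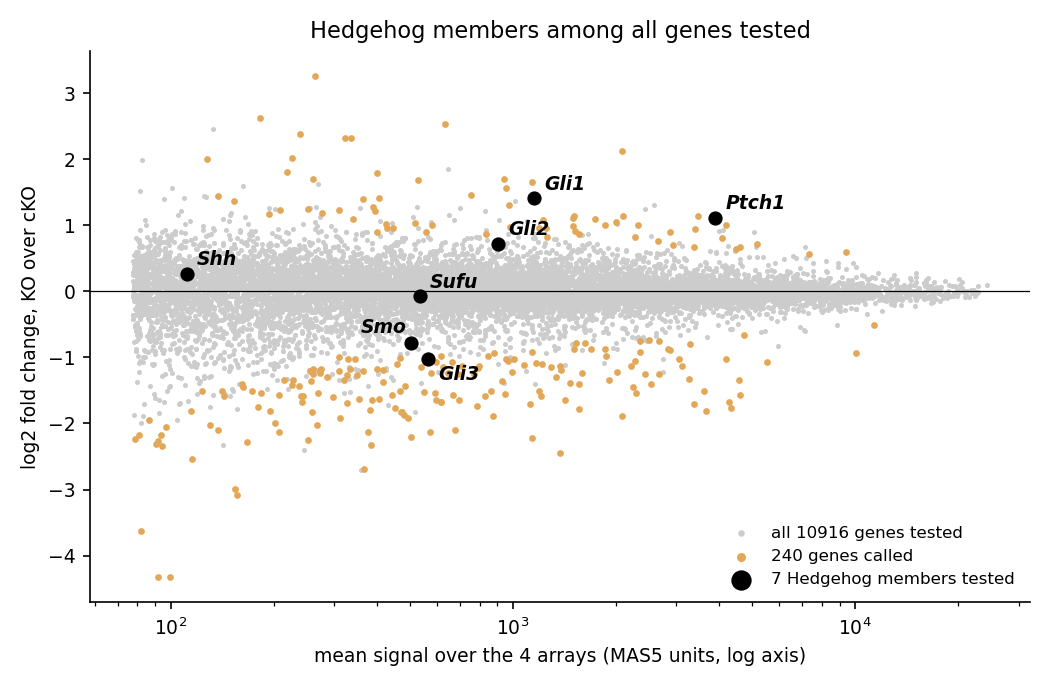
Log2 fold change of KO over cKO against the geometric mean signal of the 4 arrays (MAS5 units, log axis) for all 10916 genes tested (grey), the 240 past an adjusted p of 0.05 (orange) and the 7 Hedgehog members tested (black). Gli1 and Ptch1 lie among the genes called higher, and Gli3 and Smo at the inner edge of those called lower.

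The other genes of the pathway were read from 5 lists, ordered by role. Of 57 listed genes 53 had a probe set of their own and 32 passed the filter, while 4 were not analysed here. None of these 32 passed in limma (0 of 32), and 3 had an unadjusted p under 0.05, Lrp2, Iqce and Olig2, where 13.8% of all genes tested had one. Their median log2 fold change was 0.03, against 0.01 over all genes tested. The count at the threshold was 1 without KO line 2.

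Ligand release and reception came first. Disp1, which releases the lipid-bearing ligand from the cell that makes it, was the gene that passed the filter among 6 of ligand synthesis and release, at -0.19 on the log2 scale (SE 0.28, adjusted p = 0.857). Among receptors and co-receptors 4 of 6 measured genes passed it and all 4 had negative values, with a median of -0.36. Lrp2 (megalin), an endocytic receptor that binds Sonic hedgehog, read 452 and 653 in KO lines against 982 and 1091 in cKO lines. Both KO lines lay below both cKO lines, at -0.92 (SE 0.21, adjusted p = 0.0869), and at -1.19 (adjusted p = 0.0102) without KO line 2. The co-receptor Gas1 was at -0.56 (SE 0.33, adjusted p = 0.543).

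The 14 tested genes of signal relay and Gli processing divided evenly, with 7 positive and 7 negative values and a median of -0.02. Iqce, a ciliary protein of the Smo relay, read 292 and 270 in KO lines against 187 and 182 in cKO lines, which put it 0.59 higher on the log2 scale (SE 0.20, adjusted p = 0.245). Prkaca, a catalytic subunit of protein kinase A, which primes Gli proteins for processing, was at 0.25 (SE 0.15, adjusted p = 0.548). All 9 tested genes of the primary cilium and its transport machinery had positive values, of 0.05 to 0.59 with a median of 0.28. None passed (0 of 9 in limma, also 0 at an unadjusted p under 0.05). Over all genes tested 5613 of 10916 had positive values. Tmem67, the measured cilium gene below the filter, was at -0.99. The largest were Ift88, a subunit of the intraflagellar transport particle (0.59, SE 0.25, adjusted p = 0.365), and Ofd1, a centriolar protein (0.45, SE 0.23, adjusted p = 0.476).

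Of 16 genes that Gli proteins activate in other tissues, 12 lay below the filter, among them Foxf1, Foxf2, Foxa2 and Nkx2-2, transcription factors of gut mesenchyme, floor plate and ventral neural tube. None of the 4 tested passed in limma (0 of 4, against 2.2% of all genes tested), and 1, Olig2, had an unadjusted p under 0.05. These 4 had 1 positive and 3 negative values, with a median of -0.17. Over all 16 both KO lines lay below both cKO lines for 6 and above for 0, against 3311 and 3582 of 18193 genes. Olig2, a factor of motor neuron progenitors, read 499 and 399 in KO lines against 553 and 806 in cKO lines, at -0.58 (SE 0.23, adjusted p = 0.324). Ccnd1, the gene for cyclin D1, was at -0.25 (SE 0.14, adjusted p = 0.521).

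**Figure D4:**
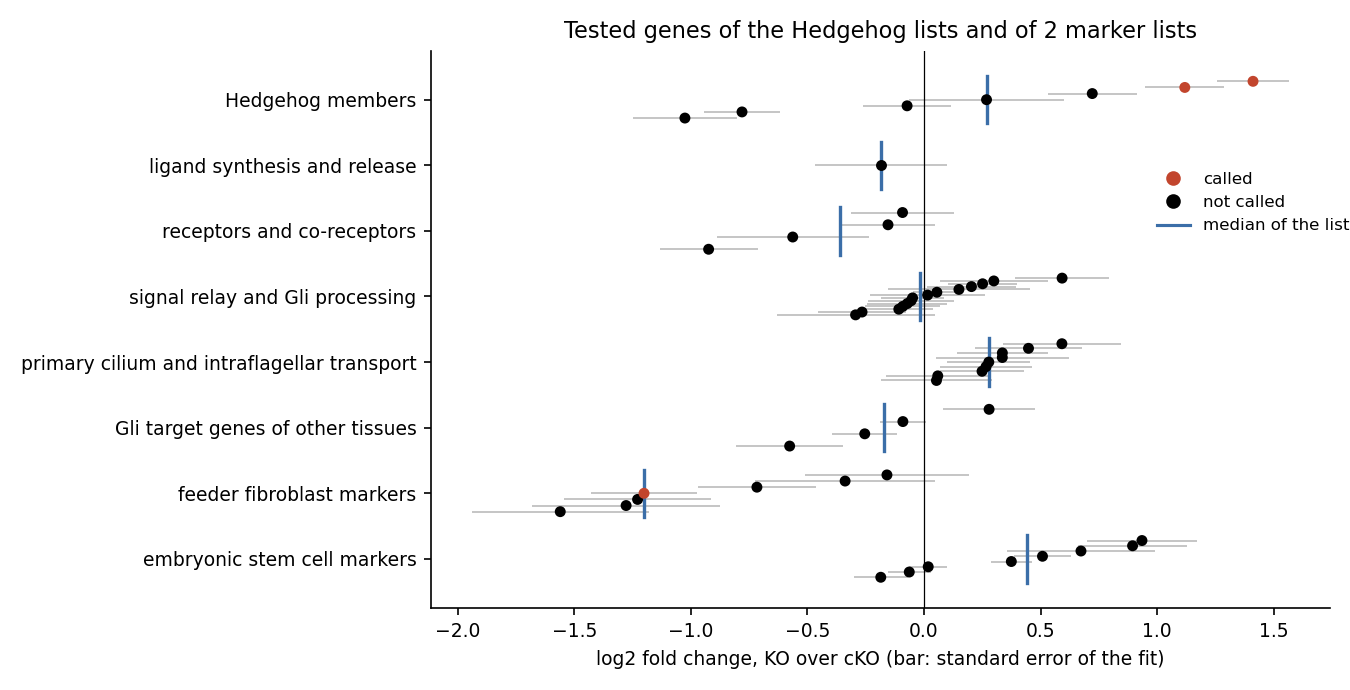
Log2 fold change of KO over cKO with its standard error for the tested genes of the Hedgehog members, the 5 other pathway lists and 2 lists of cell type markers, 1 point per gene, red where an adjusted p under 0.05 was reached, with a blue bar at each list's median. Gli1 and Ptch1 are the red points among the pathway genes, and the cilium genes all lie right of 0.

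The targeted gene and the makeup of the cultures were read beside these values. Kdm6a, which encodes UTX, read 265 and 198 in KO lines against 658 and 415 in cKO lines on its brightest probe set. The log2 difference of -1.17 (SE 0.27, adjusted p = 0.0884 in limma) missed the threshold, and passed it with centring. It was -0.84 to -1.50 with 1 array left out, and -0.57 with the mean of probe sets. The other Kdm6a probe sets were at -1.14 and, below the filter, at 0.31 and -0.29. The position of the Kdm6a probes relative to the deletion was not used, so this checks the labels only in part. All 8 embryonic stem cell markers were bright, at 2392 or more on every array, and their summed signal was 83779 and 76321 in KO lines against 70335 and 65744 in cKO lines. None of the 8 passed in limma (0 of 8), and 4 had an unadjusted p under 0.05, against 13.8% of all genes tested. Values were positive for 6, from Dppa5a (0.02) to Esrrb (0.94), and negative for 2, Pou5f1 (-0.06) and Utf1 (-0.19). Both KO lines lay above both cKO lines for 4 of the 8 and below for 1. Fibroblast feeder markers had a summed signal over 14 measured genes of 1503 and 1509 in KO lines against 3364 and 2177 in cKO lines. Of 7 tested feeder markers 1 passed, Thy1, a fibroblast surface protein (-1.20, SE 0.23, adjusted p = 0.0483), and all 7 were negative, with a median of -1.20. In limma 5 of these 7 had an unadjusted p under 0.05, against 13.8% of all genes tested. Of all 14 measured, both KO lines lay below both cKO lines for 8 and above for 1. That 1 was Prrx1, below the filter, at 60.1 and 53.8 in KO lines against 30.7 and 31.0 in cKO lines. Col1a1, a fibroblast collagen, read 146 and 171 in KO lines against 618 and 246 in cKO lines. Of the 14 measured feeder markers 7 lay below the filter. The order of the cKO lines was not the same for all feeder markers, since Thy1 read 372 and 466 in cKO lines 1 and 2. Markers of primitive and visceral endoderm summed to 653 and 341 in KO lines against 1341 and 949 in cKO lines, with 8 of 9 below the filter. Much of that difference lay in 2 genes. Dab2, the 1 tested, read 222 and 169 in KO lines against 618 and 399 in cKO lines (-1.34, SE 0.26, adjusted p = 0.0576 in limma). Cubn, below the filter, read 64.9 and 3.21 in KO lines against 269 and 214 in cKO lines. Both KO lines lay below both cKO lines for 4 of the 9 and above for 0. These 4 were Dab2, Cubn and, also below the filter, Sox7 and Sox17. The groups overlapped for Gata4, Gata6, Afp, Ttr and Apoa1. The 4 tested neural markers had 2 positive and 2 negative values. Nes (nestin) passed, lower in KO (-1.82, SE 0.30, adjusted p = 0.0325), and Map2, a neuronal microtubule protein gene, read 248 and 211 in KO lines against 97.9 and 98.5 in cKO lines, at 1.18 (SE 0.25, adjusted p = 0.0665). The part of other cell types in the differences of the members and of Lrp2 was not tested, and in RNA from whole cultures fewer cells of a type and less RNA per cell cannot be told apart.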

How the data were processed

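The authors deposited linear intensity values, a single signal for each probe set on each array, computed with MAS5 per the submitters' processing notes. Version and settings of MAS5 are not given in the sources used here. All 4 arrays had a mean of 500.0 once 2% was trimmed at either end, which shows a common scaling, and medians ran from 64.4 to 81.6. Low signals are mostly background and noisy on a log scale, and detection calls were not used here.

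Of 45101 probe sets, 34945 named 1 gene and were used, with symbols updated through Entrez identifiers in a RefSeq table (GRCm38.p6) for 34741 of them. The probe set of highest mean log2 signal stood for each of 18193 genes, and the lower 40% (below 77.7) were left out. For probe sets fitted singly the filter level was 53.8. Signals were converted to log2(signal + 4.79), the 10th percentile of all values, so fold changes of dim genes are understated. The KO lines were tested against the cKO lines in limma 3.58.1 under R 4.3.3 (eBayes with a variance trend, 2 residual and 5.13 prior degrees of freedom), with Benjamini-Hochberg adjustment over all genes tested. The procedure was also run on simulated arrays with independent errors and a spread set by signal level. Those arrays lacked the shared deviations of same-numbered lines, so that run does not test the calls made here. Ratios of means are on the linear scale. Precision is limited by having 2 arrays in each group. Tables and plots used Python 3.11.15, pandas 2.3.3 and matplotlib 3.10.9.

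The members and lists were chosen with earlier results of these data known. Genes named are Kdm6a, all 9 members, of each other pathway list the called genes or the 2 tested genes of smallest p, and the 4 genes most like the member of largest change. Any further gene named was picked with its values known. The alternatives were other pseudocounts (1 and the 25th percentile), filters and scalings, averaging the probe sets of a gene, no variance trend, the line number as a block, and fits without 1 of the arrays, which take the remaining line of that group to vary as the lines of the other group do.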

Additional observations from a re-analysis of the deposited data

How the results depend on the processing

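All 5 members whose groups did not overlap kept their sign under all 13 alternatives, but many of these could not change it. Other filters, the fit without a variance trend and the replicate block left the fold changes as they were. Leaving out 1 array cannot reverse the sign where the groups do not overlap. Among members' log2 fold changes, only Smo (-0.42) and Sufu (-0.30) with the mean of all probe sets moved by more than the spread between lines. Leaving out 1 array cannot move a value by more than that spread, so those fits do not bear on this. Hhip went from 0.83 to 0.08 without cKO line 2 and to 1.57 without cKO line 1. The count of members called was 2, but 0 without the variance trend and 5 with the line number as a replicate block, which added Gli2, Gli3 and Smo. Kdm6a passed with the block (-1.17, adjusted p = 0.00811). The other pathway genes called were 0, and 0 to 1 with 1 array left out or 1 with the block, in both cases Lrp2. The 240 genes called became 147 with no filter, 154 with the lower 60% left out, 129 with the mean of probe sets, 28 without the trend, 1048 with the block, and 228 to 432 with 1 array left out (432 without KO line 1). The 255 probe sets called became 125 with no filter, 1 without the trend, 1682 with the block, and 251 to 392 with 1 array left out (392 without cKO line 1). The labels do not pair the lines. Deviations of same-numbered lines from their group means correlated at 0.52 across genes, with 2 pairs only. The cause of these shifts was not tested. With 2 lines per group, differences as small as those of Sufu and Shh could not be resolved.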

Other observations

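The genes whose values over the 4 arrays were most like those of Gli1, by the root mean square difference of log2 signals after subtracting each gene's mean, were Csrnp3 (0.06), Triml1 (0.06), 2610316D01Rik (0.09) and Frem2 (0.10). Triml1 read 1505 and 1572 in KO lines against 659 and 579 in cKO lines, and Frem2, an extracellular matrix protein gene, 470 and 484 in KO lines against 213 and 188 in cKO lines. With 4 arrays such likeness is a description only.

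The dimmest Sufu probe set read 26.3 and 19.4 in KO lines against 76.9 and 50.1 in cKO lines, a log2 difference of -1.29, while the bright one was at -0.07. No probe positions were used here, so what the dim probe set measures was not tested.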
